A study of Homo sapiens with 4 samples.

Results

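The gene expression of RCM-1 cells after 12 h of treatment with methylthioacetic acid (MTA) was compared with that after 6 h, on 1 oligonucleotide array each. RCM-1 is an established human cell line from a well-differentiated colorectal cancer, whose sheets can lift off the plate into fluid-filled domes, and MTA is a sulphur compound that induces such domes. These are 2 of the 4 arrays of a series with 0, 6, 12 and 18 h of MTA treatment, and the 0 h array enters no ratio. In both groups, cells near confluency received 1 mM MTA, and the medium was then exchanged for medium with the vehicle, 0.1% acetonitrile, until 24 h after the addition of MTA. The 6 h cells had therefore been without MTA for 18 h when their RNA was extracted and the 12 h cells for 12 h, so exposure and time after removal cannot be told apart. The 18 h cells, whose signals are given beside these, were also kept until 24 h and had been without MTA for 6 h. How the 0 h cells were kept and when they were harvested is not stated outright. The 6, 12 and 18 h arrays are thus lengths of exposure and not successive times of sampling. Every comparison below is of 12 h over 6 h. Of 54613 probe sets other than array controls, the 20206 with a deposited signal of 50 or more on at least 1 of the 2 arrays were reported. Of these, 17450 carry 1 gene symbol and stand for 10296 genes, each represented by its brightest reported probe set. A single array per group has no replicate, which leaves the values as a description without test or p-value, and the variation between cultures is unknown.

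A cell that enters the division cycle passes from G1 into S phase when cyclin E and its kinase CDK2, which the phosphatase CDC25A activates, release the E2F transcription factors from the retinoblastoma proteins. E2F then drives genes for replication and repair of DNA, while genes for mitosis are switched on later, in G2, largely through promoters with CCAAT boxes and a cell cycle element called CHR. Other programmes that colorectal cancer cells use include the amino acid response, in which the factor ATF4 induces transporters and enzymes that supply amino acids, the hypoxia response through HIF, which raises glycolysis, and the chemokine genes that NF-kB controls. Genes of these programmes are described below in that order, after the largest differences over all genes.

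A relative signal is the deposited signal divided by the median of all probe sets on the same array, and it compares 1 probe set between arrays, not different genes. This division was used because the deposited median was 20.83 on the 6 h array and 16.61 on the 12 h array. Without it every log2 ratio would be lower by 0.33, so a positive ratio smaller than that is negative with the deposited scaling. A signal of 50 is a relative signal of 2.40 at 6 h and of 3.01 at 12 h, and 2268 probe sets were reported through the 6 h array alone against 263 through the 12 h array alone. Added poly-A control transcripts had a mean log2 ratio of 0.15 (SD 0.152, 12 probe sets) and hybridization controls one of 0.04 (SD 0.129, 9 probe sets). The signal of the 3′ over the 5′ probe set of GAPDH was 1.44 at 6 h and 1.53 at 12 h, and that of ACTB 4.76 and 5.86. Epithelial markers (EPCAM, keratins, CDH17 and others) reached a signal of 50 for 11 of 12 genes, with a summed relative signal of 2644 at 6 h and 2760 at 12 h. Of 18 markers of stromal, endothelial and immune cells, 13 stayed under a signal of 50 on both arrays, and the summed signal of 162.6 and 163.3 came mostly from LYZ, the lysozyme gene, with 143.9 and 141.9.

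The only measure of error on these arrays is the spread between probe sets of the same gene. Over 4471 genes, the log2 ratio differed between the 2 brightest reported probe sets with an SD of 0.395 and a median absolute difference of 0.219. The SD was 0.477 where the dimmer of the pair had a relative signal under 8, 0.310 where it had 8 to 32, and 0.258 where it had 32 or more. A difference of 2-fold in a bright gene is thus large beside this spread, and one of 1.5-fold in a dim gene is not.

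**Figure D1:**
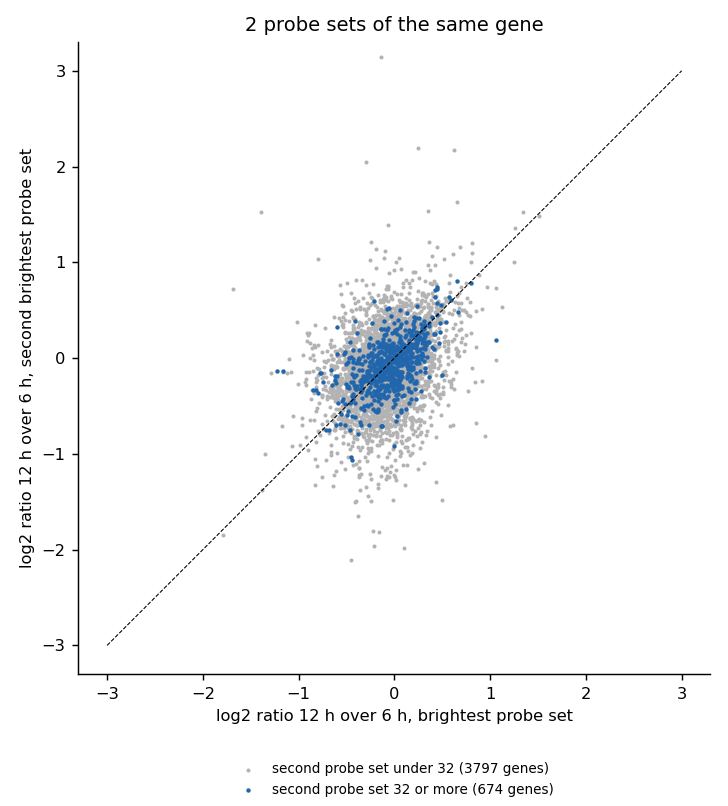
The log2 ratio of 12 h over 6 h MTA from the brightest reported probe set of each gene (x axis) against that from the next brightest (y axis), with a point for each of 4471 genes and a dashed line of equality. Points of genes whose next brightest probe set had a relative signal of 32 or more (674 genes, blue) lie closer to the line (SD of the difference 0.258) than those under 8 (SD 0.477), which are drawn in grey with those between 8 and 32.

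To show promoters from the gene groups, 250 bases before the transcription start are given for members picked by hand. They read 5′ to 3′ on the strand of the gene and come from the RefSeq promoter table of GRCh38.p14. Each holds a word searched for its group, which other members can lack, as the shares below show. Some of these genes were dim, such as CHAC1, or differed by less than 2-fold, such as CCNB2 and HMMR. Capitals mark the words searched. For the S-phase genes CDC25A, the phosphatase that activates CDK2 (chr3:48188418-48188667, minus strand), and DTL, which targets the replication factor CDT1 for destruction (chr1:212035498-212035747, plus strand), they mark E2F words. For the mitotic genes CCNB2, encoding cyclin B2 (chr15:59104896-59105145, plus strand), and HMMR, a protein of the mitotic spindle (chr5:163460382-163460631, plus strand), they mark CHR words and CCAAT boxes. For CHAC1, a glutathione-degrading enzyme (chr15:40953221-40953470, plus strand), they mark an ATF4 word, for ANKRD37, a hypoxia-induced ankyrin repeat protein (chr4:185396591-185396840, plus strand), HIF words, and for CXCL8, the chemokine interleukin-8 (chr4:73740319-73740568, plus strand), an AP-1 and an NF-kB word.
CDC25A: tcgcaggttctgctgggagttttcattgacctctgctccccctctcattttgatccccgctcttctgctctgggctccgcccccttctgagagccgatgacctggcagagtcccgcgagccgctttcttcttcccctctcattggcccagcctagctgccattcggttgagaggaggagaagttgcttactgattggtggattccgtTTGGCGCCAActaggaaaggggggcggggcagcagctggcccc
DTL: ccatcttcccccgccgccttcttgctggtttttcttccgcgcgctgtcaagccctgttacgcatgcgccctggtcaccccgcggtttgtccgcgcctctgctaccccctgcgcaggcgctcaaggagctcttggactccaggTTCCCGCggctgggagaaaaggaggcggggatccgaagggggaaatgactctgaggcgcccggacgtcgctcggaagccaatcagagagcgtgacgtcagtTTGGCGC
CCNB2: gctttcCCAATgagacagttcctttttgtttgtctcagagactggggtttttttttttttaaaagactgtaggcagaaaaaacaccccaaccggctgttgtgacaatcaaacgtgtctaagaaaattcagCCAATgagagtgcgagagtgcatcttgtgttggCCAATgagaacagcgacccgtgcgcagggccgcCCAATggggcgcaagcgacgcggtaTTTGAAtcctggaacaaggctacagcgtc
HMMR: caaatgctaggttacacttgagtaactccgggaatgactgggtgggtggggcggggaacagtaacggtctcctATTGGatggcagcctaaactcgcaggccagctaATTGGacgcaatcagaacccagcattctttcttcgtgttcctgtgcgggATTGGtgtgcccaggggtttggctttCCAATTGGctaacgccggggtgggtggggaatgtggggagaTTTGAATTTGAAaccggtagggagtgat
CHAC1: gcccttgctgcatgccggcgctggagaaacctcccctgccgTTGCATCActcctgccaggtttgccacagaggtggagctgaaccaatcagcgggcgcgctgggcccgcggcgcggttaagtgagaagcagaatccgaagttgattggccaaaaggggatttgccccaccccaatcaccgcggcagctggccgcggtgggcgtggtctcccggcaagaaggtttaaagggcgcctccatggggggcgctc
ANKRD37: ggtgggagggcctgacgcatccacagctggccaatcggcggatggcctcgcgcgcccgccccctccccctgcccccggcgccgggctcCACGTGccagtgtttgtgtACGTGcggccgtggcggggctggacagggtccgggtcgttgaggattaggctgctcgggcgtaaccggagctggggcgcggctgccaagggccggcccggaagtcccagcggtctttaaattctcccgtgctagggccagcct
CXCL8: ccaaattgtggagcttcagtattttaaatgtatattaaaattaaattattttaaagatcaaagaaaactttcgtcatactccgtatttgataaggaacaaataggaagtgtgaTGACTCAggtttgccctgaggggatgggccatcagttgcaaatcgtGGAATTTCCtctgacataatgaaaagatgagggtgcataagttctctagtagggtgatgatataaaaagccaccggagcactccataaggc

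The words were searched on both strands in these 250 bases of every promoter of the table, 35116 windows in all, in which a gene can have several. An E2F word (TTCCCGC, or the variant TTGGCGC, the variant TTCGCGC or the variant TTGCCGC) occurred in 13% of all windows and 19.1% of those of represented genes, against 57.9% of 57 windows of DNA replication genes, 54.8% of 31 of DNA repair genes, 31.8% of 44 of mitotic genes, 29.2% of 48 of glycolysis and hypoxia genes and 26.9% of 26 of G1/S regulators. The CHR word TTTGAA was found in 15.2% of all windows, 10.6% of those of represented genes and 61.4% of 44 windows of mitotic genes. It was also in 20% of 25 windows of immediate early genes and 19.2% of those of G1/S regulators. A CCAAT box (CCAAT) was found in 34.6% of all windows and 75% of those of mitotic genes. It was also in 54.8% of those of DNA repair genes, 52.6% of DNA replication genes and 50% of amino acid stress genes. The HIF word ACGTG was found in 21.4% of all windows, 25.9% of those of represented genes and 39.6% of 48 windows of glycolysis and hypoxia genes, but also in 34.6% of those of G1/S regulators and 31.8% of those of mitotic genes. The ATF4 word TGATGNAA was found in 3.62% of all and in 4 of 28 windows of amino acid stress genes. The NF-kB word GGNNTTTCC was in 6.26% of all and in 13 of 20 windows of chemokine and NF-kB target genes. The AP-1 word TGACTCA was in 4.95% of all and in 1 of these 20 windows. The E2F words TTGGCGC and its reverse complement overlap in CDC25A, as do a CCAAT box and its reverse complement in HMMR and HIF words in ANKRD37, while the 2 CHR words of HMMR adjoin. A word in a window describes its letters and is no evidence of binding.

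Between 6 and 12 h, few genes differed by 2-fold or more, and more of these had the lower signal at 12 h. Of the 10296 genes, 46 were at least 2-fold higher at 12 h (0.447%) and 85 at least 2-fold lower (0.826%), while 98.7% lay within 2-fold and 90.6% within 1.5-fold. Among the 20206 probe sets, 110 were 2-fold higher (0.544%) and 340 lower (1.68%). The median log2 ratio was −0.07 over genes and −0.09 over probe sets. It was between −0.08 and −0.05 in every range of brightness but the highest, where it was 0.10 (242 genes with a mean relative signal above 256). The surplus of lower calls depended on the scaling, the pseudocount and dim readings. The split of higher to lower genes was 15 to 408 with the deposited scaling, 29 to 174 when scaled to the poly-A controls, 70 to 66 with the trimmed mean, 68 to 68 with the median of the reported probe sets, 74 to 68 after quantile normalization and 31 to 25 with a pseudocount of 16. For probe sets these splits were 36 to 1279, 66 to 606, 146 to 256, 142 to 263, 154 to 262 and 63 to 89. Of the lower genes 58 of 85, and of the higher genes 21 of 46, had a signal under 50 on 1 of the arrays. With a signal of 50 or more on both arrays asked, 25 genes were higher and 27 lower.

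**Figure D2:**
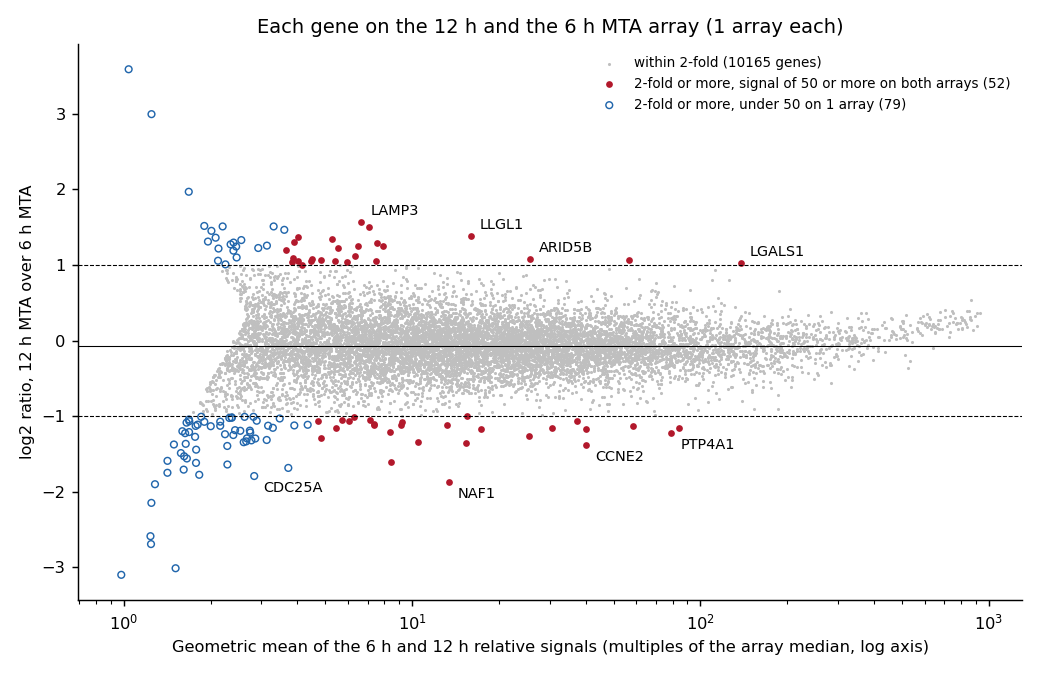
The geometric mean of a gene's relative signals at 6 and 12 h (x axis, log scale) and its log2 ratio of 12 h over 6 h MTA (y axis), for 10296 genes, with dashed lines at 2-fold and a solid line at the median of −0.07. Filled points mark the 52 genes past 2-fold with a signal of 50 or more on both arrays and open points the 79 that were dimmer on 1 array, which gather at low signals. The labelled genes are described in the text.

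The other arrays place these differences in the series of exposures. Of the 85 lower genes, 53 had their highest signal of the 4 arrays at 6 h, against 15.5% of all genes, and 58 their lowest at 12 h, against 13.7% of all genes. At 18 h the signal was above that at 12 h in 64 of the 85, against 2530 of all 10296 genes. It was still below that at 6 h in 80, against 7827 of all genes. Of the 46 higher genes, 31 had their highest signal at 12 h, against 16% of all genes. In 33 of the 46 the signal was lower at 18 h than at 12 h, a share similar to the 7766 of all 10296 genes. In 43 it was higher at 18 h than at 6 h, against 2469 of all genes. Selection on the 6 and 12 h values makes extreme values on these arrays more frequent. It also affects how often the 18 h value lies above or below them, so the shares are a description. A steady fall over the 4 arrays was shown by 7 of the 85 lower genes and by 3257 of all 10296 genes. A steady rise was shown by 9 of the 46 higher genes and by 354 of all genes. The 85 and the 46 were selected for their step from 6 to 12 h, whereas 4225 of all genes had a ratio above 0 in that step. These shares therefore do not show whether the selected genes had a steadier course than others.

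NAF1, an assembly factor of small nucleolar ribonucleoproteins, had the lowest ratio of the genes measured on both arrays, with relative signals of 20.3, 25.7, 7.01 and 14.2 at 0, 6, 12 and 18 h and a log2 ratio of −1.87. Its 12 h value stood below those of the other arrays. CCNE2, the gene for cyclin E2, had 60.5, 64.8, 24.9 and 9.15 in the same order, so that the 0 and 6 h arrays were alike and the later ones lower. Its log2 ratio was −1.38 in each of its 2 reported probe sets. FAM111B, a protease, had 19.0, 24.5, 9.61 and 4.65 (log2 ratio −1.35, and −1.01 in its other probe set). ZNF367, a zinc finger protein, had 53, 39.3, 16.4 and 13.4 (−1.26). The latter 3 were lower still at 18 h.

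CACNG4, a subunit of calcium channels and glutamate receptors, had 14.4, 14.8, 4.85 and 8.89 (−1.61). PARD6B, a protein of the apical polarity complex, had 52.4, 86.2, 39.4 and 53.9 (−1.13), and VGLL3, a cofactor of TEAD factors, 47.6, 60.2, 26.7 and 31.2 (−1.17, and −0.71 in its other probe set). In these 3 genes the 6 h array was the highest and the 12 h array the lowest. Of the brighter genes of this set, 3 rested on 1 of 4 probe sets. The phosphatase PTP4A1 had a ratio of −1.22 in its brightest probe set and −0.58, −0.13 and −0.12 in the others, the hydroxylase ASPH −1.16 against −0.29, −0.25 and −0.14, and HELLS, a chromatin remodeller, −1.16 against −0.49, −0.34 and −0.14. The set was completed by GPAT3 (−1.34), an enzyme of triglyceride synthesis, ADAT2 (−1.29, and −0.16 in its other probe set), a deaminase of transfer RNA, KLC2 (−1.21), a kinesin light chain, GTF2F2 (−1.17), a subunit of the general factor TFIIF, and HSPA2 (−1.16), a member of the HSP70 family. HSPA2 had 0.990, 8.13, 3.64 and 2.61, so its 6 h value stood above the rest.

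All 20 genes with a signal under 50 on 1 array and of 100 or more on the other had their dim reading at 12 h. These limits apply to deposited signals, whose median was 20.83 at 6 h and 16.61 at 12 h. A gene dim at 12 h could therefore enter with a smaller log2 ratio than one dim at 6 h. The limits thus favoured dim readings at 12 h, and no direction is read from the count. The lowest of the 20 was CDC25A, at −1.79. PLEKHG2 (−1.69) had other probe sets at −0.25 and 0.72. CHMP6 (−1.32), LINC00597 (−1.16), BBS7 (−1.12, and −0.16 in its other probe set), LTBR (−1.12), SERPINH1 (−1.03) and RRN3P1 (−0.97) followed. The 8 of these 20 with the ratios nearest to 0 lay between −0.83 and −0.76 (ZBED1, LRFN4, MLYCD, HAP1, WNT11, ZNF736, ALKBH8 and WRN), and ALKBH8 had another probe set at 0.34. RRN3P1 is a pseudogene of RRN3, so its probes may share transcripts with the parent gene.

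The genes that were higher at 12 h were mostly of low signal. LAMP3, a lysosomal membrane protein, had relative signals of 3.85, 3.86, 11.5 and 8.65 at 0, 6, 12 and 18 h. Its log2 ratio of 1.57 was the highest among genes ranked under the same limits on signal and probe sets. PRSS33, a serine protease, had 2.73, 4.20, 11.9 and 17.1 (1.51, and 1.48 in its other probe set), and PTGDS, a prostaglandin D synthase, 2.14, 3.33, 8.41 and 9.99 (1.34 and 1.52). In these the 12 and 18 h arrays both stood above the earlier ones. ALPG, an alkaline phosphatase with close paralogs that its probes may not tell apart, had 2.32, 2.49, 6.46 and 12.4 (1.37). DHRS2, a short-chain dehydrogenase, had 1.93, 4.83, 11.8 and 13.2 (1.29), and MYLK, the myosin light chain kinase, 1.99, 5.15, 12.2 and 8.13 (1.25, and 1.0 in its other probe set). All but MYLK of these 3 were highest at 18 h.

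Brighter genes were few on this side. LLGL1, a basolateral polarity protein, had 19.5, 9.88, 25.7 and 16.8 (1.38), so its 6 h value was the lowest of the 4. ARID5B, a chromatin regulator, had 9.43, 17.7, 37.3 and 48.8 (1.07). LGALS1, the gene for galectin-1, which was chosen after its values were seen because it was the brightest gene past 2-fold, had 44.2, 96.6, 197 and 220.3 (1.03). Both followed a steady course over the 4 arrays. The remaining genes of the 15 highest were KRTAP3-1 (1.31), a keratin-associated protein, the cystine transporter SLC7A11 (1.25), SPNS2 (1.23), a transporter of sphingosine phosphate, CCN2 (1.19), a matricellular target of YAP, HTT (1.13, and 0.53 in its other probe set), the huntingtin gene, CHAC1 (1.09) and ST3GAL5 (1.08), which makes the ganglioside GM3.

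Genes of S-phase entry were lower at 12 h as a group. The G1/S list had a median log2 ratio of −0.29 over its 26 members, all of them measured, which is 0.22 below the median of all genes, and 19 of them lay below that median. CDC25A and CCNE2 passed 2-fold and 7 members passed 1.5-fold, 26.9% of the list against 6.11% of all genes, with none 1.5-fold higher against 3.29%. CDC25A, whose promoter with 2 E2F words is shown above, had relative signals of 9.01, 5.27, 1.52 and 0.928 at 0, 6, 12 and 18 h. Its 12 h signal was under 50, and its other probe set had a ratio of −1.85. CCNE1, the gene for cyclin E1, had 16.7, 13, 6.5 and 4.19, and its ratio of −1.0 lay just inside 2-fold. RBL1, the retinoblastoma-related p107, had 13.9, 19.5, 10.7 and 8.48 (−0.87, and −0.43 in its other probe set). E2F7, a repressor of the E2F family, was at −0.83 and E2F1 at −0.66, but the other probe set of E2F1 was not lower (0.03). MYC, the proto-oncogene of growth control, had 443, 202, 183 and 149.8, so most of the distance lay between 0 and 6 h and its ratio of 12 h over 6 h was only −0.15. Members with positive ratios included TFDP2 (0.41), a partner of E2F, and CDK6 (0.37).

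The machinery of DNA replication and the genes of DNA repair shared this direction. Of 51 replication genes 50 were measured, their median log2 ratio was −0.28, and 38 lay below the median of all genes. Of these, 10 members were 1.5-fold lower, 20.0% against 6.11% of all genes, and none was 1.5-fold higher. DTL, whose promoter with 2 E2F words is shown above, had 55.7, 53.8, 25.7 and 12.6 and a ratio of −1.06 (−0.60 in its other probe set). CDT1, the licensing factor that DTL marks for destruction, had 13.1, 15.3, 8.07 and 8.88 (−0.92 and −0.22). MCM10, an initiation factor, had 25.6, 22.6, 13 and 5.84 (−0.80), with its 3 probe sets between −0.80 and −0.61. POLE, the leading-strand polymerase, had 12.5, 13.4, 7.81 and 6.79 (−0.78). In these genes the 0 and 6 h arrays were close and the 12 h array lower. At the other end, ORC3, a subunit of the origin recognition complex, had 0.31.

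For DNA repair and checkpoint genes, 20 of 27 were measured, with a median of −0.36, which was the lowest of the 45 lists. Of these 15 lay below the median of all genes, and 5 were 1.5-fold lower (25% against 6.11%). UNG, which removes uracil from DNA, had 128, 72.1, 40.4 and 25.6 (−0.84). MSH6, a mismatch repair protein, had 96.2, 85.1, 48.9 and 32.6 (−0.80, and −0.17 in its other probe set). RAD54L, a motor of homologous recombination, had 4.16, 4.68, 2.14 and 2.81 (−1.13) and XRCC2, another recombination gene, 2.37, 4.10, 2.44 and 1.46 (−0.75), both under a signal of 50 at 12 h. ATM, the kinase of the double-strand break response, was at 0.35. Relative to all genes, the G1/S, replication and repair lists were lower under each of the 14 alternatives for scaling, filter, pseudocount and choice of probe set. The distances were −0.26 to −0.18, −0.27 to −0.16 and −0.35 to −0.25. Every scaling but quantile normalization divides an array by a constant, which shifts all genes alike. Such scalings cannot change these distances, here or for the lists below, so only the other alternatives bear on them.

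**Figure D3:**
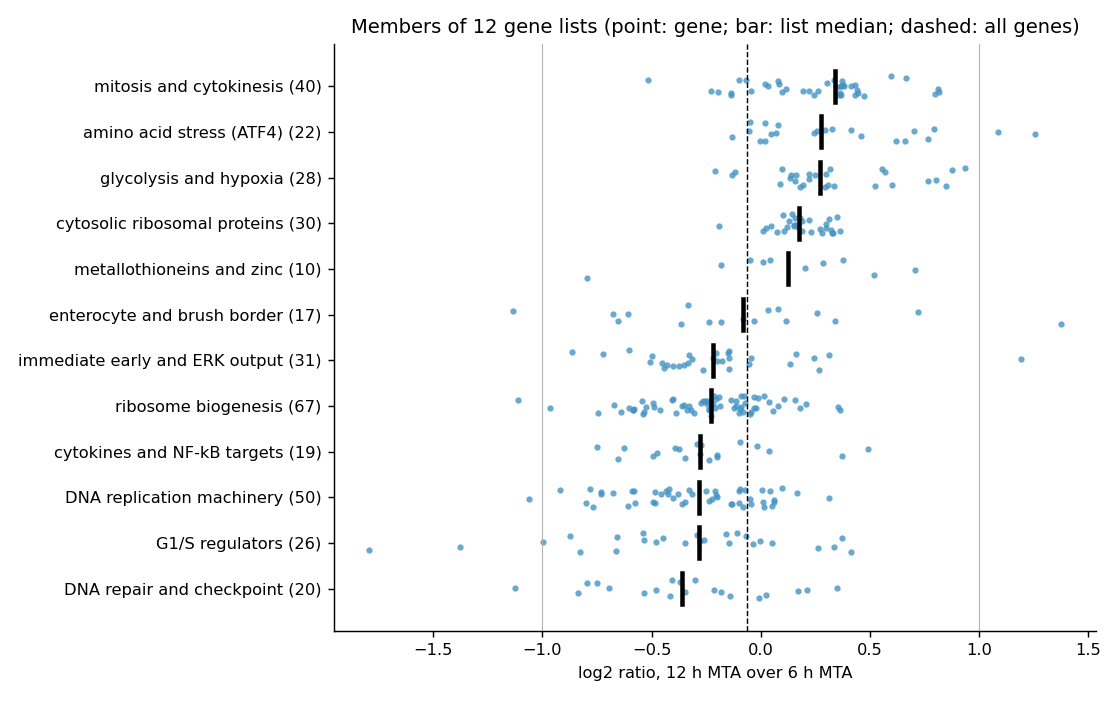
The log2 ratio of 12 h over 6 h MTA (x axis) of the measured members of 12 gene lists (y axis, number measured in brackets), a point for each gene and a bar at the list's median. The dashed line is the median of all genes (−0.07) and grey lines mark 2-fold. The medians run from −0.36 for DNA repair to 0.34 for mitosis.

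Genes of mitosis lay on the other side. All 40 members of the list were measured, their median log2 ratio of 0.34 was the highest of the 45 lists, and 33 exceeded the median of all genes. In all, 5 were 1.5-fold higher, 12.5% against 3.29% of all genes, none was 1.5-fold lower and none passed 2-fold. KIF20A, a kinesin of cytokinesis, had 9.72, 12.9, 22.7 and 35.9 (0.81). PTTG1, the securin that delays the separation of sister chromatids, had 45.5, 46.3, 81.2 and 106 (0.81). CENPF, a kinetochore protein, had 19.6, 21.7, 37.8 and 52.7 (0.80, and 0.26 in its other probe set). HMMR, whose promoter with CHR and CCAAT words is shown above, had 63.2, 73.0, 116 and 169.9 (0.66 and 0.48). In each of these the 4 arrays formed an ascending order. CCNB2 had 55.0, 50.2, 75.9 and 102 (0.60). The mitotic kinases were closer to the list's median, with CDK1 at 0.47, PLK1 at 0.37 and AURKB at 0.36. MAD2L1, of the spindle checkpoint, was the lowest member, with 130.3, 107, 75.2 and 82.9 (−0.51), although its probe sets ran up to 0.06. CCNA2, the cyclin of S phase and G2, was at −0.20, with 0.18 in its other probe set. Relative to all genes the mitosis list was higher by 0.37 to 0.42 under the 14 alternatives.

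**Figure D4:**
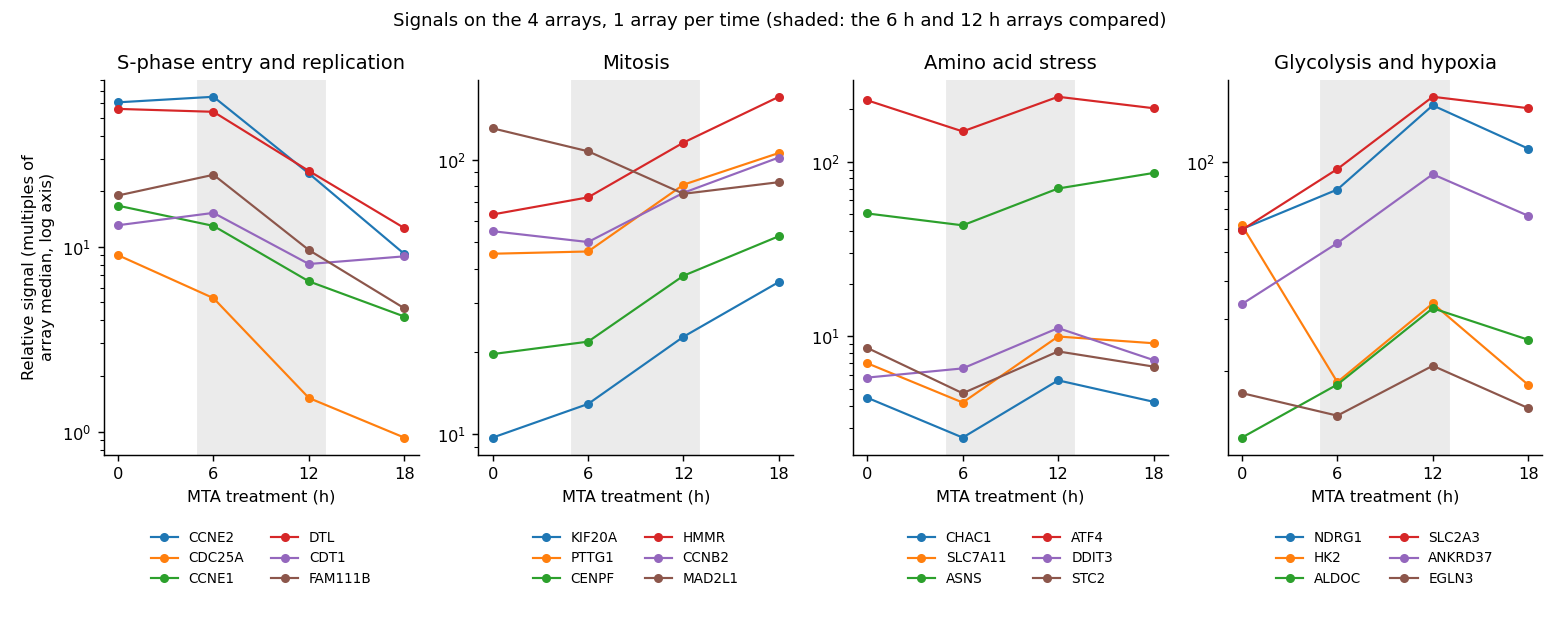
Relative signals (y axis, log scale, multiples of the array's median) of genes from 4 groups on the arrays of 0, 6, 12 and 18 h MTA (x axis), 1 array per time, with lines joining the values of a gene. In the shaded range of 6 to 12 h the S-phase genes are lower at 12 h and the others, except MAD2L1, higher, and at 18 h the mitotic genes other than MAD2L1 are higher still while NDRG1, HK2, ALDOC, SLC2A3, ANKRD37 and EGLN3 are below their 12 h value.

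Cyclin-dependent kinase inhibitors were measured for 6 of 8 genes, with a median log2 ratio of 0.18 (−0.15 with the deposited scaling). CDKN1C, encoding p57, had 52.4, 61.4, 88.1 and 76.4 (0.52), with its 4 probe sets between 0.29 and 0.56. CDKN2B, encoding p15, had 6.04, 8.88, 12.6 and 11 (0.51). CDKN1A, encoding p21, had 16.9, 27.8, 29.8 and 16.9 (0.10), so its 6 and 12 h values were close and both above the other arrays. None of the 6 passed 1.5-fold.

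Genes of the amino acid response were higher at 12 h. Of 27 genes 22 were measured, the median log2 ratio was 0.28 (−0.05 with the deposited scaling, which lowers all genes by 0.33), and 21 of them lay above the median of all genes. In all, 7 were 1.5-fold higher, 31.8% against 3.29% of all genes, and none was lower. SLC7A11, the cystine transporter, had 7.02, 4.19, 9.99 and 9.14 (1.25, and 1.35 in its other probe set). CHAC1, whose promoter with an ATF4 word is shown above, had 4.46, 2.64, 5.61 and 4.23 (1.09). STC2, a secreted stress glycoprotein, had 8.59, 4.73, 8.21 and 6.72 (0.79). In these 3 genes the 6 h array was the lowest of the 4, and the 12 h values were within 1.5-fold of those at 0 h. ATF4 itself had 224, 149, 235 and 202 (0.66) and ASNS, the asparagine synthetase, 50.5, 43.2, 70.1 and 86.0 (0.70). DDIT3, the stress factor CHOP, had 5.81, 6.56, 11.2 and 7.32 (0.77) and so stood highest at 12 h. PCK2, a mitochondrial carboxykinase, was at 0.62. The lowest member was SLC1A5, a glutamine transporter (−0.13). Relative to all genes the list was higher by 0.27 to 0.38 under the 14 alternatives.

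Neighbouring stress programmes did not share this position. The 19 genes of the unfolded protein response and of chaperones in the endoplasmic reticulum had a median of −0.11, none past 1.5-fold. Of these, 9 lay above the median of all genes and 10 below. CRELD2 was at −0.55, XBP1 at −0.39 and DNAJB11 at −0.39, and HERPUD1 was the highest member at 0.48. The 17 measured aminoacyl-tRNA synthetases had a median of −0.07, equal to that of all genes, with CARS1 at 0.47, AARS1 at 0.43 and GARS1 at 0.28, and HARS1 at −0.41 and LARS1 at −0.31 on the other side. The arginyl-tRNA synthetase RARS1 was the only one of them past 1.5-fold, with 92.4, 98.2, 49.4 and 41.0 (−0.99). NRF2 and glutathione genes (25 of 30 measured) had a median of 0.03 and held, besides SLC7A11, no gene past 2-fold. GSTM3 (0.40), AKR1C3 (0.33) and GSTP1 (0.33), which detoxify or reduce other compounds, were next on the higher side. CHAC2, a glutathione-degrading enzyme, was the member 1.5-fold lower, with 35.0, 18.2, 9.92 and 6.08 (−0.88), followed by ABCC3 (−0.47) and AKR1C2 (−0.44). Relative to all genes the median of the unfolded protein list was −0.04, and it turned to as much as 0.02 when the other probe sets of its genes were used.

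Genes of glycolysis and hypoxia were also higher at 12 h. Of 30 genes 28 were measured, with a median log2 ratio of 0.27 (−0.06 with the deposited scaling), with 25 above the median of all genes. In all, 6 were 1.5-fold higher, 21.4% against 3.29% of all genes, and none was 1.5-fold lower or past 2-fold. NDRG1, a hypoxia-induced gene of differentiation, had 59.8, 81.1, 155 and 111 (0.94). ALDOC, a brain-type aldolase, had 12.0, 18.0, 32.5 and 25.5 (0.85). SLC2A3, the glucose transporter GLUT3, had 59.4, 95, 166 and 152 (0.80), with 3 probe sets between 0.70 and 0.80. These 3 had their highest value at 12 h and were already above 0 h at 6 h. HK2, a hexokinase, differed in its course, with 61.6, 18.4, 33.7 and 18.0 (0.87), so its 12 h value stood between those of 0 h and 6 h. ANKRD37, whose promoter with HIF words is shown above, had 33.6, 53.7, 91.3 and 66.3 (0.77). PFKFB4, a regulator of glycolytic flux, was at 0.60, and the prolyl hydroxylase EGLN3 at 0.55, with 0.08 in its other probe set. Among the enzymes of the pathway itself, GAPDH had 632, 532, 632 and 559.9 (0.25) and ENO1 was at −0.12. Relative to all genes the list was higher by 0.31 to 0.35 under the 14 alternatives.

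Chemokine and NF-kB target genes were lower at 12 h. Of 24 genes 19 were measured, with a median log2 ratio of −0.28, and 15 lay below the median of all genes. The list was dim, with a median relative signal of 5.47 at 6 h and 4.94 at 12 h, where the spread between probe sets is widest. The filter also took in more probe sets through the 6 h array alone than through the 12 h array alone, which favours lower ratios in dim genes. Of the list, 3 were 1.5-fold lower, 15.8% against 6.11% of all genes. CXCL8, whose promoter with an AP-1 and an NF-kB word is shown above, had 11.4, 23.6, 14 and 4.43 (−0.75, and −0.74 in its other probe set). CXCL1, a chemokine for neutrophils, had 4.57, 5.47, 3.48 and 2.10 (−0.65). Both were highest at 6 h and lowest at 18 h. CXCL16, a chemokine that is also a scavenger receptor, had 15.7, 13.5, 8.73 and 8.43 (−0.63) and LIF, a cytokine of the interleukin-6 family, 21.2, 10.9, 7.76 and 9.47 (−0.49). IL32 (0.49) and the NF-kB subunit RELB (0.37) lay on the other side. The list stayed below all genes by 0.15 or more under the 14 alternatives (range −0.32 to −0.15).

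Immediate early genes and genes induced by ERK had a median log2 ratio of −0.22 over 31 of 34 genes, with 23 below the median of all genes. Of these, 3 were 1.5-fold lower (9.68% against 6.11%) and 1 was higher. FOSL1, a subunit of AP-1, had 28.3, 9.28, 5.09 and 2.97 (−0.87). EGR3, a zinc finger factor, had 19.8, 32, 19.4 and 8.49 (−0.72), and DUSP5, a phosphatase of ERK, 86.5, 107, 75.3 and 49.6 (−0.51). The latter 2 stood highest at 6 h, while FOSL1 and JUNB, with 12.7, 8.73, 5.74 and 4.51 (−0.60), were lower on each later array. CCN2 was the member past 2-fold, on the higher side, with 2.0, 2.41, 5.51 and 4.95 (1.19). Ligands and receptors of EGFR, measured for 9 of 13 genes, had a median of −0.05. The ligand EREG, epiregulin, was the only one past 1.5-fold, with 163, 95.8, 49.9 and 41.6 (−0.94), and the ligand BTC was at −0.51, while EGFR was at 0.22 with a probe set at −0.64.

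Genes that build ribosomes and genes of the ribosome itself lay on different sides. Of 75 ribosome biogenesis genes 67 were measured, with a median log2 ratio of −0.23, and 51 lay below the median of all genes. Of these, 7 were 1.5-fold lower, 10.4% against 6.11% of all genes. UTP15, of the small subunit processome, had 16.8, 10.8, 5.00 and 5.76 (−1.11). NIP7, of the large subunit pathway, had 40.1, 23.8, 12.2 and 11.6 (−0.96, and −0.63 in its other probe set). RRP12 had 13.3, 4.46, 2.66 and 3.16 (−0.75) and RRP9 11.2, 7.29, 4.57 and 3.48 (−0.67). In these the 0 h array was the highest and the 12 and 18 h arrays were close. RNA polymerases I and III (27 of 30 measured) had a median of −0.17, with POLR3G at −0.84 and POLR1G at −0.81. Relative to all genes both lists were lower under the 14 alternatives. Cytosolic ribosomal proteins (30 of 44 measured) had a median of 0.17, with 29 above the median of all genes, with RPS19 at 0.36 and RPS14 at 0.33, but RPS19 had a probe set at −0.18. They are among the brightest genes, where the median of all genes is 0.10, and their distance from all genes turned from 0.24 to −0.02 after quantile normalization and their median from 0.17 to −0.15 with the deposited scaling. ACTB (0.28, with 1075, 786, 952 and 751) and the other housekeeping genes, with a median of 0.23 over 13 of 16, are bright as well.

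Markers of mature enterocytes and of transport showed no common position. Of 32 enterocyte and brush border genes 17 were measured, and their median of −0.08 was close to that of all genes, with 8 above it and 9 below. In all, 2 were 1.5-fold higher (11.8% against 3.29% of all genes) and 4 were 1.5-fold lower (23.5% against 6.11%). The higher ones were the related phosphatases ALPG and ALPP (0.72), which their probes may not tell apart, and CEACAM1 was at 0.34 and KRT20 at 0.26. Besides these, the brush border held CA2, a carbonic anhydrase, with 17.0, 28.8, 18.0 and 7.26 (−0.68), CEACAM6, an adhesion glycoprotein, with 248, 189, 120.3 and 108 (−0.65, and −0.28 in its other probe set), and EZR, the ezrin of microvilli, with 284, 254, 166 and 160.2 (−0.61). The 4 probe sets of EZR ran from −0.61 to −0.03. FABP1, the fatty acid binding protein, had 2.63, 2.97, 1.35 and 2.27 (−1.13), under a signal of 50 at 12 h, and its ratio was −0.69 with a pseudocount of 16. Ion and water transport genes were measured for 13 of 30, with a median of −0.11, and 2 were 1.5-fold lower (15.4% against 6.11% of all genes). These were CA2 and SLC4A7, a bicarbonate transporter, with 13.4, 10.3, 5.6 and 5.21 (−0.88). Junction genes (26 of 29) had a median of −0.08 and none past 1.5-fold, and CLDN3 was at −0.49 and CLDN4 at −0.41. The goblet cell list (9 of 25) had a median of −0.05. Of the lineage factors, KLF5 had 121, 119, 78.5 and 123 (−0.59), with another probe set at 0.32, and ELF3 106, 76.0, 52.7 and 43.8 (−0.53), with 3 probe sets between −0.74 and −0.53.

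Metallothioneins and zinc transporters were measured for 10 of 11 genes and had a median log2 ratio of 0.12 (−0.20 with the deposited scaling). MT1G, a zinc-binding metallothionein, had 8.36, 24.9, 40.6 and 28.0 (0.71), MT1E 5.68, 10.4, 14.9 and 10.5 (0.52, and 0.16 in its other probe set) and MT2A 30.5, 74.2, 90.4 and 82.4 (0.29). All 3 were lowest at 0 h and highest at 12 h. These genes are near-identical copies, so their probe sets may read each other's transcripts. SLC39A10, a zinc importer, had 51.4, 25.7, 33.4 and 34.3 (0.38), with the highest value at 0 h. MTF1, the zinc-sensing factor that drives metallothionein genes, was 1.5-fold lower, with 7.07, 10.2, 5.91 and 5.34 (−0.79), but its probe sets ran up to 0.25.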

How the data were processed

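RNA of RCM-1 cells was hybridized to Affymetrix U133 Plus 2.0 arrays, 1 per time. The manufacturer made the values for the authors, who deposited linear MAS5 signals (intensity per probe set) from Affymetrix Expression Console. Neither its version nor the target of its scaling is given in the sources used here. Control probe sets (62) were left out. Each array was divided by its median over all probe sets, and the log2 ratio of 12 h over 6 h was taken without a pseudocount for probe sets with a signal of 50 or more on at least 1 of the 2 arrays. A ratio of 2-fold was called, and 1.5-fold used for lists. Precision is limited by the number of arrays. Neither a signal of 50 nor a low MAS5 signal has a stated detection limit here. Dim signals were given no bound, since no detection calls were used.

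Probe sets were named through GEO's platform annotation, with symbols updated by RefSeq tables of GRCh38.p14. Of the reported probe sets, 878 carry several symbols and 1878 none, and these were counted and not named. Named are the 15 highest and 15 lowest genes with a signal of 50 or more on both arrays and with all other reported probe sets of the same sign, the 8 highest and 8 lowest of the genes under 50 on 1 array and at 100 or more on the other, up to 4 members per list in the direction of the list and every member past 2-fold, and GAPDH, ACTB, CCNE2, CDC25A and MYC. Other members named, such as CCNB2, CDK1, MAD2L1, ATF4, ASNS, ANKRD37, E2F1 and the genes at the far end of a list, were chosen after their values were seen. The 45 lists hold 1214 genes from textbook knowledge, 984 of them measured. The comparison, the members and the lists were chosen with earlier results of these data known. Alternatives were other scalings, filters, a pseudocount, thresholds and choices of probe set. The calculation was tested on simulated data. Python 3.11.15, NumPy 2.4.6, pandas 2.3.3 and matplotlib 3.10.9 were used.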

Additional observations from a re-analysis of the deposited data

How the results depend on the processing

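No paired analysis was possible because each group is 1 array, and for the same reason no replicate could be left out. The counts of 46 higher and 85 lower genes, and of 110 and 340 probe sets, depended on the setting. With the deposited scaling they were 15 and 408 genes and 36 and 1279 probe sets, and scaled to the poly-A controls 29 and 174 genes and 66 and 606 probe sets. The higher genes numbered 70 with the trimmed mean and 74 after quantile normalization. Without a filter, when most probe sets carry little signal, 2309 genes were higher and 1842 lower, and 8025 and 7389 probe sets. With 50 or more asked on both arrays the genes were 25 and 27 and the probe sets 45 and 79, with 100 or more on at least 1 array 21 and 36 and 39 and 119, and with 200 or more 5 and 21 and 9 and 54. A pseudocount of 16 left 31 higher and 25 lower genes, and 63 higher and 89 lower probe sets. At 1.5-fold there were 339 and 629 genes and 668 and 1830 probe sets, and at a log2 ratio of 1.5 there were 8 and 18 genes and 24 and 53 probe sets. A filter on a relative signal of 3, which is the same height on both arrays and was chosen after the data were seen, gave 46 and 62 genes and 110 and 243 probe sets.

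The distances of list medians from all genes reversed after quantile normalization for cytosolic ribosomal proteins (−0.0153) and epithelial identity genes (−0.0033), and were 0.0775 there for housekeeping genes. Without a filter they were 0.12 for CDK inhibitors, 0.0655 for metallothioneins, 0.0642 for interferon-stimulated genes and 0.0625 for epithelial identity genes. With 50 or more on both arrays the clock list was at 0.20. With 100 or more on at least 1 array the histone list was at 0.21, interferon-stimulated genes at 0.23, Notch at 0.11, the clock at 0.10 and fasting-type genes at 0.28, and with 200 or more the histone list was at 0.22, interferon-stimulated genes at 0.30 and fasting-type genes at 0.28. With the mean over the probe sets of a gene, nucleotide synthesis was at −0.0053, the proteasome at −0.18 and SR proteins at −0.11. Without probe sets that can bind several transcripts, the histone list was at 0.0728 and housekeeping genes at 0.18. The cause of these movements was not tested. Of 220 named ratios, 2 moved by more than the SD between probe sets with the pseudocount (CDC25A to −1.28 and FABP1 to −0.69) and 15 with the mean over probe sets, among which U2AF2 (0.10) and FAS (−0.19) turned sign and MARVELD3 came to 0.0048.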

Other observations

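Among genes of protein folding and RNA processing, several lists lay below all genes at 12 h. Heat shock proteins and cytosolic chaperones (21 of 26 measured) had a median log2 ratio of −0.22, and 5 were 1.5-fold lower, 23.8% against 6.11% of all genes. HSPH1, a large HSP110 chaperone, was at −0.72, with 3 probe sets between −0.86 and −0.72, CHORDC1 at −0.76, FKBP4 at −0.75 and DNAJB1 at −0.64. SR proteins and splicing factors (27 of 28) had a median of −0.28, with SNRPA1 at −0.80, SNRPD1 at −0.84 (and 0.13 in its other probe set), U2AF2 at −0.57 (and 0.77) and TRA2B at −0.48. Mitochondrial ribosomal proteins and import (34 of 35) had −0.28, 28 of them below the median of all genes, led by TIMM8A (−0.93), TIMM17A (−0.58), TOMM22 (−0.53) and TIMM13 (−0.52). Nucleotide synthesis (23 of 25) had −0.17, with PFAS at −0.68 and CTPS1 at −0.62. The proteasome (35 of 39) had −0.18, with PSMB10 at −0.71 and PSMA3 at −0.45. Nucleoporins and nuclear transport (37 of 37) had −0.13, with RCC1 at −0.76 and NUP54 at −0.64. Apoptosis regulators (19 of 27) had −0.18, with AVEN, an apoptosis inhibitor, at −0.91 and APAF1, the apoptosome scaffold, at −0.69. Methionine cycle and polyamine genes (23 of 25) had −0.15, with the spermidine and spermine synthases SRM and SMS at −0.55 each, ADI1, of methionine salvage, at −0.54, and ATP13A3 at −0.67 with 0.15 in its other probe set, while CTH, the cystathionine gamma-lyase, was at 0.68.

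On the other side, the circadian clock list (15 of 20) had a median of 0.26 (−0.07 with the deposited scaling), and 4 members were 1.5-fold higher, 26.7% against 3.29% of all genes. PER2, a clock repressor, had relative signals of 6.2, 9.75, 15.6 and 9.32 at 0, 6, 12 and 18 h (0.68), RORA was at 0.76 with probe sets from −0.53 to 0.78, HLF at 0.79 and DBP at 0.59. Cells on the 2 arrays were extracted at the same time after MTA addition, but at different times after the exchange of medium. That time was 18 h for the 6 h cells and 12 h for the 12 h cells, and its bearing on these genes was not tested. Fasting-type genes (15 of 20) had a median of 0.10, with CCNG2 at 0.63, TSC22D3 at 0.58, TXNIP, which restrains glucose uptake, at 0.57 and PDK4 at 0.54, but KLF9, a zinc finger factor, at −0.89 with 0.00085 in its other probe set. Histone genes with polyadenylated transcripts (11 of 15) had 0.28, with H1-2 at 0.66 and H2AZ2 at 0.50 (−0.17 in 1 of its 4 probe sets). The Notch list (17 of 20) had 0.14, with NEURL1B at 0.66, DLL1 at 0.58, HEY1 at 0.47 and NOTCH3 at 0.44, and HES4, a repressor that Notch induces, on the other side at −0.80. Lysosome and autophagy genes (30 of 36) had 0.11, with TP53INP1 at 0.66 and BNIP3L at 0.43, and interferon-stimulated genes (15 of 25) 0.04, with IRF7 at 0.78 and IRF9 at 0.66.

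The remaining lists lay within 0.1 of all genes. Intestinal stem cell and Wnt targets (16 of 25) had a median of −0.03 but held 3 genes that were 1.5-fold higher (18.8% against 3.29% of all genes). They were the feedback inhibitors NKD1 (0.92, and −0.24 in its other probe set) and NOTUM (0.66) and the factor SP5 (0.64). All 3 were dim, with relative signals at 6 and 12 h of 2.95 and 5.57, 5.83 and 9.21, and 5.59 and 8.68. p53 targets (20 of 26) had −0.04, and 3 were 1.5-fold lower (15% against 6.11% of all genes), FBXW7 at −0.74 (with probe sets up to −0.07), AEN at −0.72 and TIGAR at −0.61, and 1 higher, TP53INP1, with DDB2 at 0.49. BMP and TGF-beta genes (19 of 26) had −0.02. The inhibitors of the pathway SMAD7 (−0.85) and SKIL (−0.84) were 1.5-fold lower, 10.5% of the list against 6.11% of all genes, while BAMBI was at 0.42. Cholesterol synthesis and uptake (19 of 26) had −0.08, with PMVK, the phosphomevalonate kinase, as the only member past 1.5-fold (0.88), SREBF2, the factor that drives these genes, at 0.51, and INSIG1 at −0.47 with its other probe sets up to 0.02. Keratins, integrins and laminin (29 of 33) had −0.02, with KRT80 at −1.11, ANXA3 at −0.69, ITGA6 at −0.61 and KRT23 at 0.37, lineage factors (14 of 26) −0.09, and complex I (29 of 34) −0.06.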
